A study of Mus musculus with 6 samples.

Results

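The ADAM family (a disintegrin and metalloprotease) was described in testis RNA of heterozygous controls and of mice labelled Tmc7 knockout. Members were the protein-coding entries of the deposited table whose gene name is Adam followed by a number and at most 1 letter, which leaves out the secreted Adamts enzymes. The rule found 33 of 22046 protein-coding entries, among 55711 entries in all, and used no measured value. RNA sequencing covered 6 libraries, 3 titled control with the heterozygote genotype and 3 titled knockout, all from testis of the C57BL6 strain. By these labels both groups carry at least 1 changed Tmc7 allele. Neither the allele nor the age is described in the labels. No label ties a library to its own animal, and each p-value therefore reflects just the spread among these libraries, which may be technical. The 2 groups are called heterozygotes and knockout-labelled libraries.

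ADAM proteins are anchored in the membrane and carry a prodomain, a metalloprotease-like domain, a disintegrin domain and a cysteine-rich domain. Some are active sheddases that cut the outer part of growth factors, receptors and adhesion molecules off the cell surface. Others have lost the catalytic residues and act through binding. Mammalian testis makes an unusually large set of them. Fertilin, a dimer of an ADAM1 and the ADAM2 protein, and ADAM3 (cyritestin) are made in spermatogenic cells and processed on the maturing sperm, and male mice without ADAM3 are infertile because their sperm fail to pass from the uterus into the oviduct.

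The coding sequence separates the members by their catalytic site. Active metalloproteases hold a zinc-binding signature of 3 histidines, a catalytic glutamate and a glycine at fixed spacing, and this signature was searched for in the translated GENCODE M21 coding sequence of 1 transcript per gene. It was present in 20 of 33 members and absent from 13. The 33 bases of this site are shown for 11 members to let the abundant testis ADAMs be compared with enzymes. The codons of the 5 signature positions are in capitals and the sequences are 5′ to 3′ on the coding strand, in GRCm38. For members without the signature, the matching stretch was placed by protein alignment to the member with it that gave the highest alignment score.

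Adam5 (chr8:24806449-24806481, minus strand): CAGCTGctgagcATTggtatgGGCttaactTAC

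Adam3 (chr8:24707418-24707450, minus strand): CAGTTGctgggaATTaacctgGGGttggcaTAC

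Adam32 (chr8:24901501-24901533, minus strand): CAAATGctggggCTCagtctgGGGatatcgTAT

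Adam2 (chr14:66053841-66053873, minus strand): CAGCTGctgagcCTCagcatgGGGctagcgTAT

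Adam18 (chr8:24647848-24647880, minus strand): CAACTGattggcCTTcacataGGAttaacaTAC

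Adam29 (chr8:55872374-55872406, minus strand): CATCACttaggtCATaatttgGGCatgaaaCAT

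Adam1b (chr5:121501937-121501969, minus strand): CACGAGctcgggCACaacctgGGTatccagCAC

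Adam24 (chr8:40680518-40680550, plus strand): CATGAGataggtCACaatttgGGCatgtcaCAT

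Adam30 (chr3:98161861-98161893, plus strand): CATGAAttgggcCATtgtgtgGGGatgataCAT

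Adam9 (chr8:24990326-24990358, minus strand): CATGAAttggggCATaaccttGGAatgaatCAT

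Adam17 (chr12:21336732-21336764, minus strand): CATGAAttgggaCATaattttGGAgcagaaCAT

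In Adam5, Adam3, Adam32, Adam2 and Adam18, 1 of the 5 signature positions matched, and 0 of the 3 histidines. Adam29 kept all 3 histidines without the glutamate, and matched 4 of 5 positions. The other testis members without the signature were Adam4, Adam6a and Adam6b, which matched 3, 2 and 1 of the positions. Adam4 also kept all 3 histidines without the glutamate. Outside the testis ADAMs the signature was absent from Adam7, Adam11, Adam22 and Adam23. Like Adam29, Adam7 matched 4 of 5 positions, with all 3 histidines and no glutamate. For Adam11 the alignment placed no ungapped stretch.

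For description, 20 members known for expression in spermatogenic cells or on sperm were grouped as testis ADAMs. They comprised 10 genes of fertilin, cyritestin and their sperm-surface partners and 10 testases and other testis members. A further 8 were broadly expressed sheddases, 3 neural binding proteins and 2 epididymal members. Gene structure went with this grouping: 15 of the 20 testis ADAMs had their whole coding sequence in 1 exon, and 0 of the other 13 members did. Chromosome 8 held 12 of the 20 testis ADAMs. Several are close copies. The proteins of Adam39 and Adam25 were identical at 91.4% of aligned residues, those of Adam6b and Adam6a at 89.8%, those of Adam26b and Adam26a at 88.4%, and those of Adam1a and Adam1b at 72.3%. In 11 of the 20, over 20% of the 31-base words of the transcripts also occur in other genes, so their values are uncertain where reads could be split between copies.

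Values are FPKM, fragments per kilobase of a gene corrected for the size of each library, and whole reads per gene could be worked back from them. Depth was 17059486 to 18629233 reads in the heterozygotes and 17397662 to 19343479 reads among knockout-labelled libraries, of which the 33 members held 0.365% to 0.475%. Tmc7, the targeted gene, was at 39.1, 37.7 and 37.2 FPKM across heterozygotes, against 43.8, 41.9 and 35.1 FPKM with the knockout label, a difference of 0.08 with a standard error of 0.10 on the log2(FPKM + 1) scale (limma adjusted p = 0.885). The level of its transcript thus leaves the labels unchecked. Testis identity was checked by marker lists. All 13 spermatocyte, 12 round spermatid and 16 late spermatid markers had a mean of at least 0.5 FPKM, and Tnp2 and Prm1 reached means of 3844 and 3001 FPKM. Knockout-labelled libraries 2 and 3 stood apart from the other 4 in the level of several lists, as given below, so results are also given with single libraries left out.

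**Figure D1:**
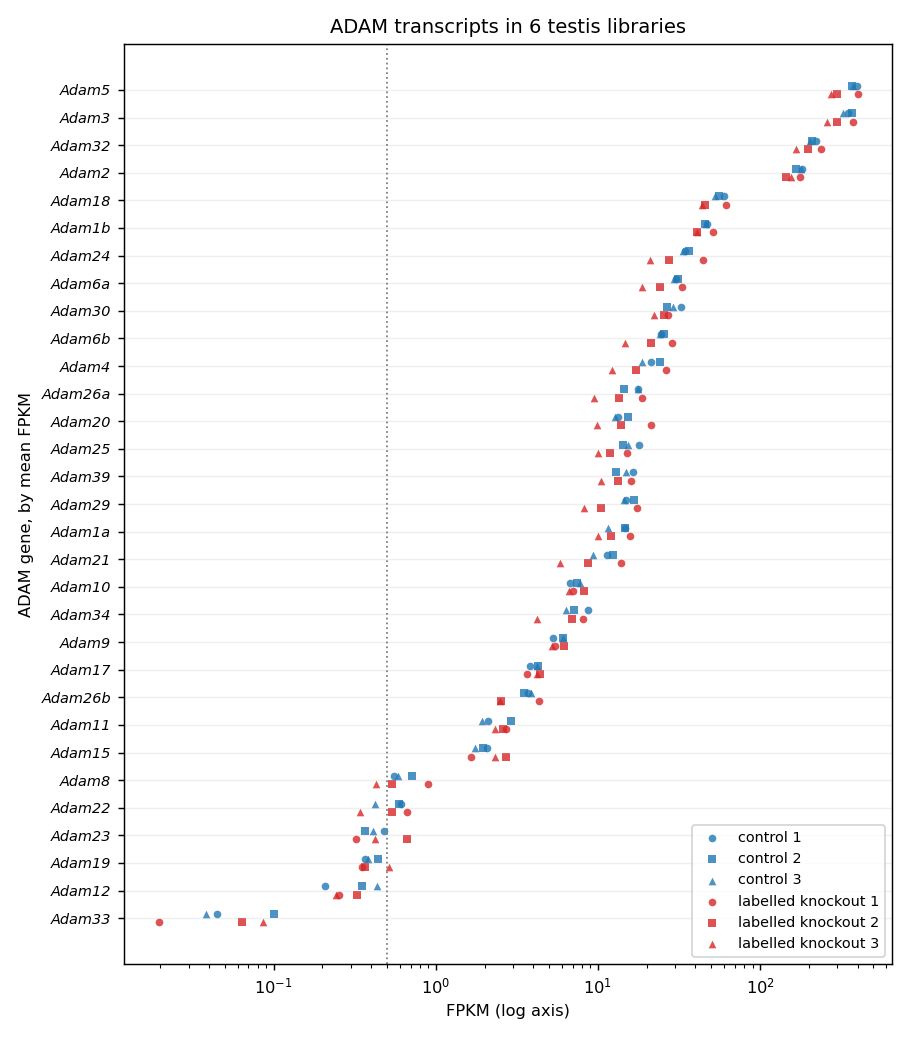
FPKM of 31 ADAM members (log axis) in 3 control libraries (blue) and 3 libraries labelled knockout (red), 1 point per library, ordered by mean level. The dotted line marks 0.5 FPKM; Adam5, Adam3, Adam32 and Adam2 lie above all other members, and Adam7 and Adam28, at 0 in 5 of 6 libraries, are not drawn.

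The family was dominated by genes without a catalytic site. Adam5, Adam3, Adam32 and Adam2 together made up 73.6% to 76.2% of the summed FPKM of the family in each library, and the 20 members with the zinc signature 14.8% to 15.8%. The summed FPKM of all 33 members was 1539, 1494 and 1447 in heterozygotes and 1614, 1260 and 1121 among knockout-labelled libraries. Knockout-labelled library 1 was thus the highest of the 6 and libraries 2 and 3 the lowest. In bulk tissue, fewer cells of a type and less RNA per cell cannot be told apart.

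In order of level, Adam5 was above Adam3 in 5 of 6 libraries, and the ranges of these neighbours overlapped. Adam3 lay above Adam32 in 6 of 6 libraries with no overlap of the ranges, and Adam2 above Adam18 likewise. From Adam18 down, 24 of the 28 steps from 1 member to the next had overlapping ranges over the 6 libraries, such as Adam6a over Adam30 (higher in 3 of 6) and Adam20 over Adam25 (3 of 6). The table divides by a gene length that exceeds the chosen transcript in several members, which lowers their FPKM against other genes if that transcript is the main one. This length was 7508 bases in Adam1a, 2.15 times the 3496 bases of its single-exon transcript, and 5.17 times the transcript in Adam22, 2.79 times in Adam23, 2.07 times in Adam15 and 1.61 times in Adam17. The place of these genes in the order, and of Adam22 and Adam23 beside the 0.5 FPKM filter, carries this limit.

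Of the 33 members, 27 had a mean of at least 0.5 FPKM and entered the test. No member passed: by limma on log2(FPKM + 1), adjusted over all 19168 genes tested, 0 of 27 were called at an adjusted p under 0.05, and 0 had an unadjusted p under 0.05. Across all genes the share called was 0%, with unadjusted p under 0.05 in 2.38% as lower and 1.48% as higher. By limma-voom on the recovered reads 0 of 30 members were called and 1 had an unadjusted p under 0.05, Adam25. In 0 of 27 did all values of one group lie beyond all values of the other, where 4.41% of all genes tested lay wholly lower and 4.15% wholly higher among knockout-labelled libraries. A negative difference (knockout-labelled minus heterozygote) was found in 24 of 27 members and in 51.4% of all genes tested. The median difference was -0.17 over the 27 members and -0.01 over all genes.

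The fertilin, cyritestin and sperm-surface genes had negative differences in 10 of 10 members, with a median of -0.17 on the log2(FPKM + 1) scale. Adam5, which encodes a catalytically inactive sperm ADAM, was at 395, 370.2 and 374 FPKM for heterozygotes, next to 399, 298 and 274 FPKM in knockout-labelled libraries. Its groups overlapped, as knockout-labelled library 1 held the highest value of all, while libraries 2 and 3 lay below every heterozygote. The difference was -0.25 with a standard error of 0.16 and a 95% interval from -0.63 to 0.13 (limma adjusted p = 0.868).

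Adam3, the gene for cyritestin, ranked the knockout-labelled libraries in the same order. It was at 349.8, 367 and 324 FPKM in heterozygotes, while knockout-labelled libraries held 376, 300.03 and 257 FPKM, a difference of -0.17 (standard error 0.16, limma adjusted p = 0.868). Adam32, a testis ADAM whose gene neighbours Adam5 on chromosome 8, was at 222, 208 and 203 FPKM across heterozygotes, against 236, 197 and 168 FPKM with the knockout label. The means of Adam32 were 211 ± 9.7 FPKM and 200.4 ± 34.5 FPKM (SD, n = 3 each), and the values of the groups overlapped.

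Adam2, the fertilin beta subunit on chromosome 14, differed in that knockout-labelled library 1 was not the highest. Its values were 181, 167 and 180.2 FPKM for heterozygotes, next to 176, 144 and 156 FPKM in knockout-labelled libraries, with libraries 2 and 3 again below all heterozygotes. The difference was -0.15 (standard error 0.11, limma adjusted p = 0.868). The partners of Adam2 in fertilin are the products of Adam1a, whose dimer stays in the endoplasmic reticulum, and Adam1b, whose dimer reaches the sperm surface. Adam1b was at 46.6 ± 0.793 FPKM in heterozygotes, while knockout-labelled libraries held 44.2 ± 5.94 FPKM, and Adam1a at 13.6 ± 1.76 and 12.6 ± 2.95 FPKM (SD, n = 3 each). Adam1a overlaps other genes, and 78.4% of its words occur in transcripts of other genes, 63.1% in the overlapping Gm42878, which is listed at 0 in all 6 libraries.

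Adam18, a further member without a catalytic site, lies beside Adam3 on chromosome 8 and was at 59.6, 55.6 and 53.1 FPKM across heterozygotes, against 62.1, 45.6 and 43.6 FPKM with the knockout label. Adam4, Adam6a and Adam6b, single-exon genes on chromosome 12 whose proteins are found in sperm ADAM complexes, had the largest standard errors of this group. Adam6a was at 30.5, 31.3 and 29.7 FPKM for heterozygotes, next to 33.1, 24.3 and 18.7 FPKM in knockout-labelled libraries. Its copy Adam6b was at 24.7, 25.5 and 24.1 FPKM, then 28.8, 21.1 and 14.7 FPKM. The heterozygotes of both genes thus sat within a narrow band that was spanned on both sides by the knockout-labelled libraries. Of the words of Adam6a 40.6% occur in Adam6b, and 40.8% the other way, so their reads may be divided between them. Adam4 was at 21.3 ± 2.63 FPKM in heterozygotes, while knockout-labelled libraries held 18.6 ± 7.08 FPKM (SD, n = 3 each), and 33.3% of its words recur in other transcripts, 24.0% in Gm4787. Gm4787, a protein-coding entry that the name rule leaves out, was at 66.3 ± 4.8 and 54.2 ± 17.5 FPKM. Its mean of 60.3 FPKM exceeds the 53.3 FPKM of Adam18, and the family sums, shares and order of level do not include it.

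The testases and other testis members had negative differences in 9 of 10 genes, with a median of -0.23. Adam24, the gene for testase 1, was the most abundant of them, at 34.5, 36.3 and 33.3 FPKM across heterozygotes, against 44.3, 27.4 and 20.96 FPKM with the knockout label. Its SD was 1.51 FPKM for heterozygotes, next to 12.1 FPKM in knockout-labelled libraries. Adam29, whose product lacks the glutamate, had the largest negative difference of all members, -0.38 with a standard error of 0.24 and a 95% interval from -0.94 to 0.17 (limma adjusted p = 0.868). It was at 14.8, 16.7 and 14.4 FPKM in heterozygotes, while knockout-labelled libraries held 17.3, 10.5 and 8.24 FPKM.

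Adam30 and Adam25, which keep the zinc signature, had the smallest p-values of the family, with a difference of -0.23 (standard error 0.11) for Adam30 and -0.35 (standard error 0.16) for Adam25 (limma adjusted p = 0.868 for both). Adam30 was at 32.5, 26.6 and 28.96 FPKM across heterozygotes, against 27.3, 25.4 and 22.05 FPKM with the knockout label, where libraries 2 and 3 were the lowest of the 6. Adam25, the gene for testase 2, was at 17.8, 14.4 and 15.3 FPKM, then 15.2, 11.9 and 9.98 FPKM. In these 2 genes knockout-labelled library 1 lay among the heterozygotes and not above them.

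Adam20, Adam25 and Adam39 are neighbours on chromosome 8 with related sequence, and their differences did not share a sign. Adam20 was the single testis ADAM with a positive difference, 0.06 with a standard error of 0.24, at 13.3, 15.3 and 12.7 FPKM for heterozygotes, next to 21.2, 13.9 and 9.92 FPKM in knockout-labelled libraries. This sign rests on knockout-labelled library 1, without which the difference was -0.21. Adam39 was at 14.8 ± 1.78 and 13.2 ± 2.82 FPKM (SD, n = 3 each). Between 42.4% and 51.0% of the words of these 3 genes occur in other genes, so their reads may be divided among them. Their summed level was 44.4 ± 2.82 FPKM in heterozygotes, while knockout-labelled libraries held 40.6 ± 11.2 FPKM. Adam26a, Adam26b and Adam34, a second set of copies on chromosome 8, summed to 27.6 ± 2.41 and 23.4 ± 7.5 FPKM. Within it, Adam26a was at 17.6, 14.5 and 17.7 FPKM in heterozygotes, and knockout-labelled libraries held 18.7, 13.5 and 9.42 FPKM of it. Adam34 (7.38 ± 1.16 and 6.42 ± 1.99 FPKM) and Adam26b (3.67 ± 0.179 and 3.13 ± 1.06 FPKM) were less abundant. Of the words of this second set, 45.09% (Adam34) to 54.05% (Adam26b) occur in other genes. Adam21, on chromosome 12, was at 11.02 ± 1.55 and 9.48 ± 4.12 FPKM (SD, n = 3 each), and had the largest standard error of the members, 0.27.

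**Figure D2:**
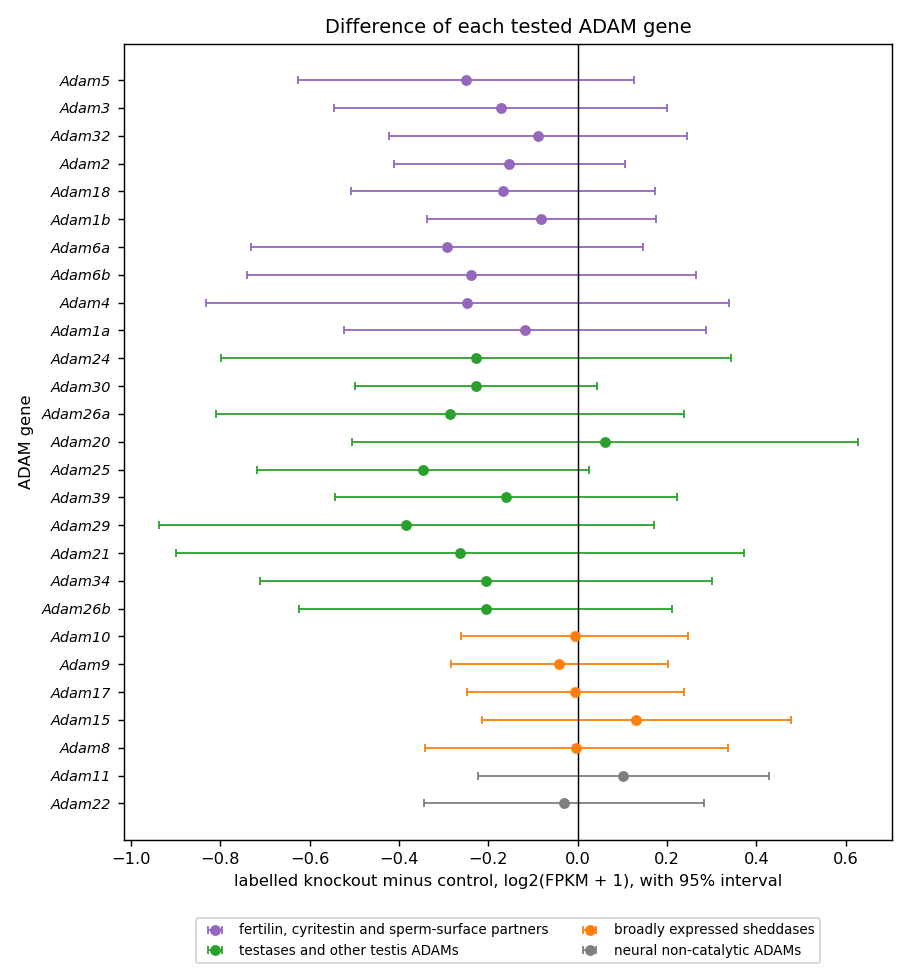
Difference of each of the 27 tested ADAM members, knockout-labelled minus heterozygote, on the log2(FPKM + 1) scale, with its 95% interval from the limma fit and coloured by group. All 27 intervals include 0; the 10 fertilin, cyritestin and partner genes have negative values, and the 5 sheddases lie between -0.04 and 0.13.

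Across the 20 testis ADAMs the knockout-labelled libraries did not form 1 group. Knockout-labelled library 3 was the lowest of the 6 libraries in 18 of 20 testis ADAMs and 22 of 27 tested members, against 22.8% of all genes tested. Knockout-labelled library 1 was above all 3 heterozygotes in 15 of 20 and 17 of 27, against 21.6% of all genes. Centred on the 6 libraries, the mean log2(FPKM + 1) of the 20 genes was 0.16, 0.10 and 0.04 in heterozygotes and 0.27, -0.15 and -0.43 among knockout-labelled libraries. The median difference of these genes was -0.22. Without knockout-labelled library 3 it was -0.04, with 13 of 20 negative and Adam32, Adam24, Adam4, Adam1a, Adam21, Adam34 and Adam20 positive, and without knockout-labelled library 1 it was -0.39, with 20 of 20 negative. In the latter setting 14 of 27 members had an unadjusted p under 0.05, as did 18.2% of all genes, and 0 were called (smallest limma adjusted p of a member 0.147, for Adam29).

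Both spermatid lists were lowest in knockout-labelled libraries 2 and 3, though heterozygote library 3 was also low for late spermatid markers. The late spermatid list had negative differences in 16 of 16 markers with a median of -0.41, and its centred level was 0.46, 0.25 and -0.14 in heterozygotes and 0.34, -0.30 and -0.61 among knockout-labelled libraries. Its summed level ranged from 12930 to 21910 FPKM in heterozygotes and from 9750 to 18750 FPKM among knockout-labelled libraries. Round spermatid markers had a median of -0.19 (10 of 12 negative), with levels of 0.21, 0.08 and -0.04 and of 0.18, -0.16 and -0.25. Knockout-labelled library 1 was above all heterozygotes in 2 of 16 late and 4 of 12 round spermatid markers. The same held for 15 of 20 testis ADAMs and 21.6% of all genes. Spermatocyte markers had a median of -0.11 (9 of 13 negative), with levels from 0.02 to 0.10 in heterozygotes and from -0.11 to 0.04 among knockout-labelled libraries. Sertoli markers had the opposite sign, with 11 of 12 positive, a median of 0.24 and levels from -0.21 to -0.00 in heterozygotes against -0.17, 0.19 and 0.33. None of these markers was called, and none of the 4 lists held a marker at 0 in all libraries. The part of cell makeup in the ADAM values was not tested. Spermatogonial markers had a median of 0.03 (5 of 9 positive), macrophage and leukocyte markers 0.24 (9 of 9), peritubular myoid markers 0.30 (6 of 7), endothelial markers 0.07 (5 of 6) and Leydig cell markers -0.20 (2 of 9), with 0 called in each. The Leydig level was 0.02, 0.14 and 0.08 in heterozygotes and 0.20, 0.12 and -0.55 in the other group. Knockout-labelled library 3, where the testis ADAMs were lowest, was thus the single low one. In that library 6 of the 9 tested Leydig markers had their lowest value, while Hsd3b1 and Nr5a1 had their highest. The most abundant Sertoli markers, Clu and Aard, were at 230 ± 3.5 and 100.7 ± 6.64 FPKM in heterozygotes and at 257 ± 33.9 and 121 ± 19 FPKM in the other group. Piwil1 and Stag3 of spermatocytes, Uchl1 and Id4 of spermatogonia, and Spata16 and Tssk3 of round spermatids had the highest levels of their lists. So did Cyp17a1 and Insl3 of Leydig cells, Actg2 and Myl9 of myoid cells, Lyz2 and C1qb of macrophages, and Cdh5 and Vwf of endothelium. Actg2 was the single tested myoid marker with a negative difference, -0.30 with a standard error of 0.22. Piwil1, Stag3, Uchl1 and Spata16 also had a sign opposite to the median of their list.

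**Figure D3:**
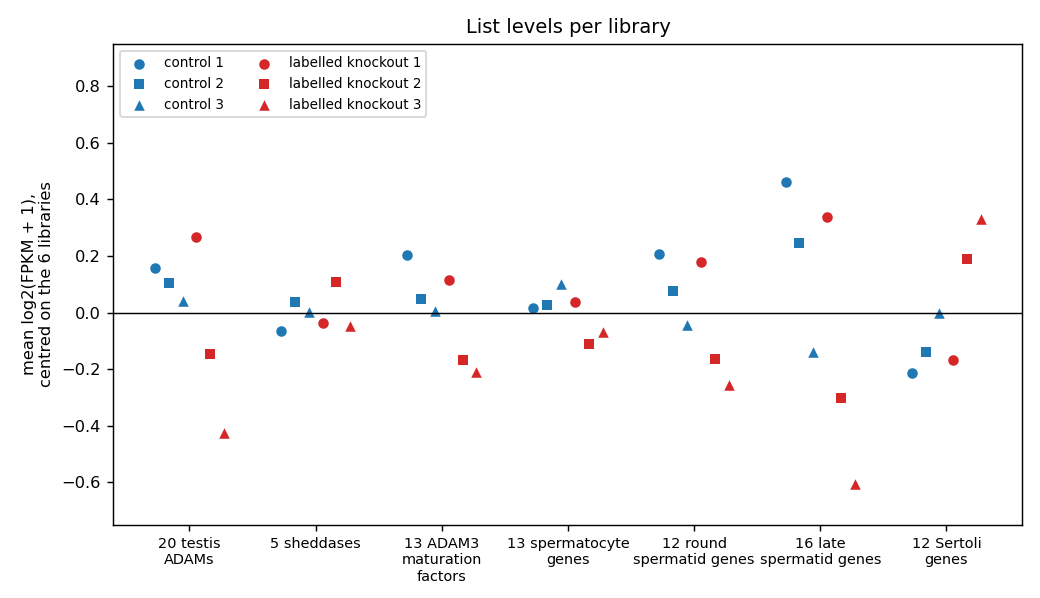
Mean log2(FPKM + 1) of 7 gene lists in each library, centred on the mean of the 6 libraries (blue, controls; red, labelled knockout; circle, square and triangle, libraries 1, 2 and 3). The 20 testis ADAMs and both spermatid lists are lowest in knockout-labelled library 3, where Sertoli genes are highest, and the sheddases stay between -0.07 and 0.11.

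The broadly expressed sheddases were at low levels, and the median difference of the 5 tested was -0.00. Adam10, which cuts Notch receptors and many adhesion molecules, was the highest of them, at 6.69, 7.42 and 7.81 FPKM across heterozygotes, against 7.04, 8.16 and 6.64 FPKM with the knockout label, from 541 to 737 reads per library. Its difference was -0.01 with a 95% interval from -0.26 to 0.25. Adam17, the enzyme that releases tumour necrosis factor and ligands of the epidermal growth factor receptor, was at 4.1 ± 0.229 and 4.09 ± 0.378 FPKM, with an interval from -0.25 to 0.24. Adam9 was at 5.81 ± 0.462 and 5.62 ± 0.475 FPKM (SD, n = 3 each), with an interval from -0.28 to 0.20. These intervals bound the differences of the 3 genes, and the test does not show that the levels were equal.

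Adam15, which binds integrins, had a positive difference of 0.13 with a standard error of 0.15, at 2.07, 1.97 and 1.75 FPKM for heterozygotes, next to 1.66, 2.71 and 2.34 FPKM in knockout-labelled libraries. Here knockout-labelled libraries 2 and 3 were the highest and library 1 the lowest, unlike in Adam5. Of its words, 18.2% recur elsewhere, 17.1% in the overlapping 4731419I09Rik on the other strand. Whether counting used strand is not stated, so reads of the shared stretch may not be told apart. Adam8, known from leukocytes, was near the detection filter at 0.615 ± 0.0843 and 0.622 ± 0.247 FPKM, from 39 to 79 reads. Whether the sheddases differ in response from the testis ADAMs was not tested.

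Adam11, Adam22 and Adam23 encode neural receptors of the LGI proteins without protease activity. Adam11 was at 2.11, 2.92 and 1.94 FPKM in heterozygotes, while knockout-labelled libraries held 2.7, 2.59 and 2.33 FPKM, a difference of 0.10 with a standard error of 0.14. Adam22 was at 0.543 ± 0.104 and 0.515 ± 0.163 FPKM (SD, n = 3 each), just inside the filter of 0.5 FPKM. Adam23, just outside it at a mean of 0.445 FPKM, was at 0.479, 0.368 and 0.41 FPKM, then 0.322, 0.67 and 0.421 FPKM. The ligand genes were scarcer still: Lgi4, Lgi2 and Lgi3, the highest of 4, had means of 0.338, 0.292 and 0.098 FPKM, and 0 of 4 were tested.

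The other 5 members below the filter were Adam19, Adam12, Adam33, Adam7 and Adam28. Adam19 and Adam12, which encode meltrins, had 43 to 71 and 36 to 88 reads per library, and Adam33 had 2 to 10. Adam7, which belongs to the epididymal epithelium, had 1 read in heterozygote library 1 and 0 in the other 5 libraries. Adam28, found in epididymis and lymphocytes, had 2 reads in heterozygote library 2 and 0 elsewhere. In the list of 14 epididymal genes 5 were at 0 in all libraries, Lcn5 and Ovch2 among them. All but Cst8 had a mean below 0.5 FPKM, with Defb20 the next at 0.106 ± 0.0394 and 0.125 ± 0.154 FPKM. Cst8, a cystatin-like gene that testis also expresses, was at 132 ± 16.2 and 99.1 ± 44.3 FPKM (SD, n = 3 each).

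ADAM3 reaches the sperm surface only when a set of chaperones and surface proteins acts on it. Of 13 such genes, 13 were tested, 0 were called (0 at an unadjusted p under 0.05), 11 had negative differences and the median was -0.18. Clgn, the chaperone calmegin, was at 184, 172 and 186 FPKM across heterozygotes, against 191, 153 and 165 FPKM with the knockout label. Cmtm2b, one of a pair of membrane proteins needed for ADAM3 on sperm, was at 285 ± 28.2 and 253 ± 38.7 FPKM (SD, n = 3 each). The second of the pair, Cmtm2a, was at 138, 121 and 123 FPKM for heterozygotes, next to 119.8, 90.8 and 105 FPKM in knockout-labelled libraries, the 1 gene of the list whose groups did not overlap. Its difference was -0.28 (standard error 0.13, limma adjusted p = 0.868). Among all genes tested, 4.41% likewise lay wholly lower in knockout-labelled libraries. Prss37, a testis protease-like gene, was at 108, 109 and 88.1 FPKM, then 98.6, 83.3 and 58.7 FPKM, a difference of -0.36 with a standard error of 0.20.

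Regulators and substrates of the sheddases had mostly positive differences, where 51.4% of all genes tested had negative ones. Among regulators and inhibitors 0 of 12 tested genes were called, 11 were positive and the median was 0.09. Timp2, an inhibitor of metalloproteases, was at 46.7 ± 5.12 and 52.2 ± 11.7 FPKM, Frmd8, which stabilises iRhom proteins with Adam17, at 17.4 ± 0.433 and 18.6 ± 2.26 FPKM, and Tspan17, a tetraspanin of Adam10, at 9.03 ± 0.757 and 11.1 ± 2.75 FPKM (SD, n = 3 each). Tspan33, also a tetraspanin of Adam10, was at 2.15, 2.26 and 2.22 FPKM in heterozygotes, while knockout-labelled libraries held 2.65, 2.54 and 2.95 FPKM, the 1 tested gene of this list with no overlap. Among all genes tested, 4.15% likewise lay wholly higher. Rhbdf2, the iRhom that carries Adam17 to the surface, was at 1.27 ± 0.308 and 2.09 ± 0.712 FPKM. The centred level of this list was -0.16, -0.09 and 0.03 in heterozygotes and -0.16, 0.29 and 0.10 among knockout-labelled libraries, with the highest values in libraries 2 and 3. Sertoli and macrophage markers were highest in these libraries too, and their part in the result was not tested.

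Proprotein convertases remove the prodomain of ADAMs. Of 4 tested, 0 were called, 3 were positive and the median was 0.17. Pcsk4, the convertase of spermatids, was at 49.8 ± 6.2 and 54.4 ± 2.89 FPKM. Pcsk7 was at 5.26 ± 0.336 and 6.24 ± 0.707 FPKM with no overlap of the groups, where 4.15% of all genes tested lay wholly higher. Furin was at 3.1 ± 0.191 and 4.03 ± 1.32 FPKM. Substrates of sheddases had 11 of 16 tested genes positive, 0 called and a median of 0.05. The standard errors of the single genes had a median of 0.13. In 1 of the 16 the knockout-labelled values lay wholly lower, as in 4.41% of all genes tested. The adhesion molecule Cdh2 was at 10.7 ± 0.983 and 11.3 ± 1.3 FPKM, Tnfrsf1a, a receptor of tumour necrosis factor, at 7.16 ± 0.821 and 9.33 ± 2.46 FPKM, App, the amyloid precursor, at 7.24 ± 0.653 and 8.87 ± 1.15 FPKM, and the chemokine Cx3cl1 at 0.992 ± 0.168 and 1.64 ± 0.621 FPKM. Of 6 tested integrin subunits, which bind disintegrin domains, 3 were positive and 0 called. Itgb1 was at 18.7 ± 1.14 and 18.8 ± 0.873 FPKM, Itgb5 at 14.4 ± 0.598 and 13.9 ± 1.57 FPKM, Itga6 at 2.43 ± 0.51 and 2.4 ± 0.447 FPKM, Itga9 at 1.2 ± 0.32 and 1.79 ± 0.874 FPKM, and Itgb3 at 0.573 ± 0.18 and 0.656 ± 0.0749 FPKM (heterozygotes first, SD, n = 3 each). None of the 4 convertases, 16 substrates or 6 integrins had an unadjusted limma p under 0.05.

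Testis ADAMs of different sequence class are given side by side. The 9 without the zinc signature had a median difference of -0.24 (9 of 9 negative) and the 11 with it -0.21 (10 of 11 negative). The 15 testis ADAMs with a single coding exon had a median of -0.23 and the 5 with several coding exons one of -0.17. The gaps between these medians were not tested.

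**Figure D4:**
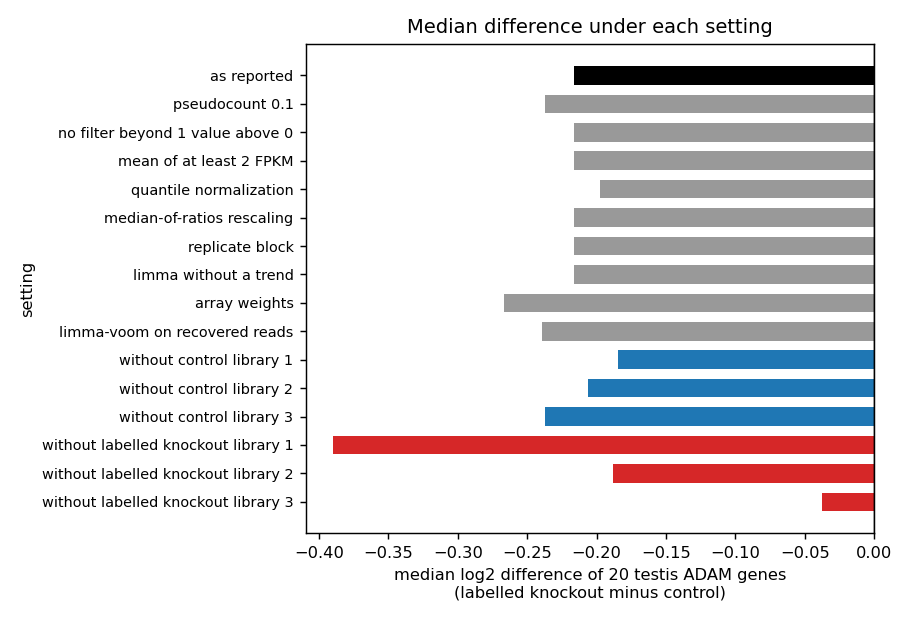
Median log2 difference of the 20 testis ADAMs (knockout-labelled minus heterozygote) under each processing setting and with each library left out. The bar is -0.22 as reported, -0.39 without knockout-labelled library 1 and -0.04 without library 3; the black bar is the reported setting, grey bars are other settings, and blue and red bars leave out a control or a library labelled knockout.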

How the data were processed

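Testis RNA was grouped by sample titles, 3 libraries a group. Extraction used Trizol and library preparation a SMARTER mRNA-Seq kit, per the labels' protocols. Expression came as FPKM, computed by the authors before they deposited the table. GRCm38 and mm10 appear as builds in the submitters' processing notes. Aligner, counter, annotation and strand setting: not given in the sources used here. All 33 members had identical coordinates in GENCODE M21. Multiplying FPKM by gene length gave whole multiples of a fixed step in each library (100% of values above 0, tolerance 0.001 reads), hence reads per gene. Genes averaging 0.5 FPKM or more were fitted as log2(FPKM + 1) by limma 3.58.1 (R 4.3.3; trended variance, 1 term for group) with Benjamini-Hochberg adjustment over all genes. This scale understates changes of low genes. The fit was also run on simulated reads drawn independently for each gene, so that run does not cover levels that move together within a library. Members, roles, lists and tests were chosen with earlier results of these data known. The text names every member. In each pathway list it names the 3 genes of highest mean FPKM and the 2 of smallest p, and in marker lists those of highest mean FPKM. Gm42878, Gm4787, 4731419I09Rik, Lcn5, Ovch2, Hsd3b1 and Nr5a1 were named after their values were seen. Alternatives were a pseudocount of 0.1, filters of none and 2 FPKM, quantile and median-of-ratios scaling, the replicate block, array weights, no trend, limma-voom on reads (mean of at least 10) and each library left out. Sequences came from GENCODE M21 and were aligned with biopython 1.88.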

Additional observations from a re-analysis of the deposited data

How the results depend on the processing

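No member passed under any of the 15 alternatives run. Over all genes 0 passed in the same alternatives except limma-voom on recovered reads, where 1 gene, not an ADAM, did. The count of tested members with a negative difference, 24 as reported, lay between 15 (without knockout-labelled library 3) and 23 when single libraries were left out. Some small differences changed sign: with quantile normalization Adam17 was at 0.0031, Adam8 at 0.0185 and Itga6 at 0.0078, and with array weights Adam17 was at 0.0075 and Adam20 at -0.0866. Leaving out single libraries gave -0.21 to 0.31 for Adam20, -0.22 to 0.0312 for Adam32, -0.51 to 0.0097 for Adam24, -0.52 to 0.0045 for Adam4, -0.28 to 0.0237 for Adam1a, -0.56 to 0.0097 for Adam21, -0.37 to 0.0274 for Adam34, -0.0818 to 0.0489 for Adam10, -0.0498 to 0.0557 for Adam17, -0.12 to 0.0822 for Adam8, -0.10 to 0.0538 for Adam22, -0.0239 to 0.12 for Cdh2, -0.0344 to 0.0483 for Itgb1, -0.11 to 0.0368 for Itgb5, -0.13 to 0.0775 for Itga6 and -0.0318 to 0.26 for Timp2. The cause was not tested. With the replicate block 0 members were called, 1 (Adam25) had an unadjusted limma p under 0.05, and the median of the testis ADAMs was -0.22. With array weights 0 members were called, 4 had an unadjusted limma p under 0.05, and that median was -0.27 (20 of 20 negative). Of all genes, 7.36% with the block and 11.35% with array weights had such a p. The labels do not state whether same-numbered libraries are paired. Their deviations from the group means correlated at 0.29, 0.04 and 0.20 over 19168 genes. Knockout-labelled libraries 1 and 3 correlated best with the heterozygote of the same number, and library 2 with heterozygote 3 (0.17). The block changed no call, with 1411 genes at an unadjusted p under 0.05 against 741 without it. Depth limits Adam7, Adam28 and Adam33, with 0 to 10 reads per library.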
